A study of Mus musculus with 16 samples.

Results

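Basement membrane genes were described by the signals of 17 probe sets of 10 genes, among 12488 probe sets on each array. The genes were Col4a1, Col4a2, Col18a1, Lama2, Lama5, Lamb1, Lamb2, Lamc1, Nid1 and Hspg2, and a probe set was taken when the array's annotation gave it exactly 1 symbol and that symbol was one of these. The study asked how gene expression differs in lungs that do not form normal alveolar sacs, and it measured total lung RNA of mice lacking T1α, a membrane glycoprotein of type I alveolar cells encoded by Pdpn. There were 16 arrays, 1 lung each: 5 T1α(-/-) fetuses and 5 T1α(+/+) fetuses at E18.5 (day 18.5 of gestation), and 3 T1α(-/-) and 3 T1α(+/+) newborns at term. The fetuses and newborns came from matings of heterozygous mice, newborns were taken right after delivery, and T1α is missing from every cell of a (-/-) animal, so effects in type I cells and in other T1α-bearing tissues such as lymphatics and mesothelium cannot be told apart. In whole lung RNA, fewer cells of a type and less RNA per cell cannot be told apart either.

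The basement membrane is the thin sheet of matrix under epithelia and around capillaries. In the distal lung, type I cells and capillary endothelial cells come to share a single fused sheet as the saccules thin before birth. Its frame is built of 2 networks, collagen IV trimers and laminin trimers (an α, a β and a γ chain), which nidogen and the heparan sulfate proteoglycans perlecan (Hspg2) and collagen XVIII (Col18a1) tie together. In the lung, collagen IV and laminins are made by endothelial and mesenchymal cells as well as by the epithelium, so a whole lung signal sums several sources.

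The starts of 9 of the 10 genes were matched to RefSeq's promoter windows (GRCm38.p6, 300 bases each), 10 windows in all because Col18a1 has 2 starts. The collagen IV genes stand first because they overlap head to head, by 85 bases between the outermost annotated ends of the genes. The starts behind the promoter windows are position 11312805 of chromosome 8 on the plus strand for Col4a2 and 11312826 on the minus strand for Col4a1, and the 22 bases from one to the other are in capitals here within chr8:11312801-11312830, plus strand:
Col4a2 and Col4a1 starts: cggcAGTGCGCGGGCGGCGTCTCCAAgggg
Lamb1 and Col18a1 follow, whose signal differed between E18.5 and term at an adjusted p under 0.05 in at least 1 genotype. Nid1 follows as well, though its only probe set was too low to be tested. Each is shown as bases before its start, with 3 motifs in capitals on either strand. These motifs are the GC box (GGGCGG or CCGCCC), the CCAAT box (CCAAT or ATTGG) and the TATA box (TATAAA or TTTATA). The start behind the Lamb1 promoter window is position 31265293 of chromosome 12, and the 2 GC boxes of that window lie past the stretch shown. Lamb1 is shown for chr12:31265043-31265145, plus strand, up to the first base of the annotated gene:
Lamb1: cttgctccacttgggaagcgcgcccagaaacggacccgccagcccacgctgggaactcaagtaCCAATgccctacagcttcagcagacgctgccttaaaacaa
Col18a1 is shown for its 2 starts, chr10:77166531-77166780 and chr10:77113706-77113955, both minus strand:
Col18a1, upstream start: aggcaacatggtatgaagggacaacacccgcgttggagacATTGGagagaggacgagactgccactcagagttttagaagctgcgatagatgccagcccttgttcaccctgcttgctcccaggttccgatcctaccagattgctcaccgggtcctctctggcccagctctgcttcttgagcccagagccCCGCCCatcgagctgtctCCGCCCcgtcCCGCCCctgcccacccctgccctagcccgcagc
Col18a1, downstream start: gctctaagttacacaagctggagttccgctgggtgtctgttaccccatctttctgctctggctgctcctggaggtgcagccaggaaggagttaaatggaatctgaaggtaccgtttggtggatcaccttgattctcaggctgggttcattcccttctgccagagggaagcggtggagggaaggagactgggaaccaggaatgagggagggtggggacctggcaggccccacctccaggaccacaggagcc
Nid1 is shown for chr13:13437352-13437601, plus strand:
Nid1: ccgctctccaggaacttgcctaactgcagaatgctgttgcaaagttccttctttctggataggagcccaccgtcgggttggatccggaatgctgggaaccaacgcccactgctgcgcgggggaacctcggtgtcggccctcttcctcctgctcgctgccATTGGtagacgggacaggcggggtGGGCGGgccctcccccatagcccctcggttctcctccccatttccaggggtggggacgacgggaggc
A GC box stood in 8 of the 10 windows and in 35.7% of all 32851 promoter windows of that length. A CCAAT box stood in 5 of the 10, against 37.4% of all windows, and the TATA box letters stood in 0 of the 10, against 13.6%. The windows of Col4a1 and Col4a2 share 78 bases, so they are not separate counts. The upstream Col18a1 window held 3 GC boxes and 1 CCAAT box, and the downstream one held none of the 3 motifs. A match of letters is a description of the sequence and not a binding site, and which start the lung used cannot be read from these arrays.

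The genotype labels were checked on Pdpn itself. Its signal lay between 1.4 and 21.2 in the (-/-) lungs and between 60.2 and 135.5 in the (+/+) lungs at E18.5, and between 8.6 and 30.0 against 39.7 and 214.9 at term, with no overlap at either age. Sftpc, the surfactant protein of type II cells, was at 5027 or above on every array. The values are MAS 5.0 signals, in which Affymetrix software combines the probes of a probe set into 1 number per array and scales each array to the same trimmed mean. 1 array, (+/+) E18.5 replicate I, stood apart: its 25th percentile signal was 29.8, against 8.7 to 15.0 on the other 15 arrays. The highest signal of an array lay between 12979 and 29524 at E18.5 and between 6159 and 10576 at term, and because the labels give no scan or hybridization date, age and array run cannot be told apart. Signals of different probe sets are not compared with each other, since each set of probes binds with its own strength.

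Between T1α(-/-) and T1α(+/+) lungs, no tested probe set of a basement membrane gene passed the test over all probe sets. The probe sets whose median signal in at least 1 group was above 54.3 were tested at E18.5, which kept 14 of the 17, covering every gene except Nid1. In limma fits, 0 of these 14 passed an adjusted p of 0.05 at E18.5 (0.0343% of all 5825 tested did), and 1 passed at an unadjusted p under 0.05 (5.3% of all did), by limma as by the methods' t-test. Of the 14, 10 were higher and 4 lower in (-/-) lungs (55.7% of all probe sets tested were higher), with a median log2 fold change of 0.32 against 0.04 over all. All tested Col18a1 probe sets were among those higher. Of these, 162483_f_at passed the filter through the (-/-) fetuses alone, which favours a higher (-/-) value. The median was 0.18 without (+/+) replicate J, 0.20 without (+/+) replicate I and 0.18 when no filter on low signals was used. No member's signals were separated between the genotypes at E18.5 (1.13% of all probe sets' were). Without (+/+) replicate I, Lamb1 162263_f_at was separated, with the other 4 (+/+) lungs from 194.5 to 231.1 and every (-/-) lung below them. The exact permutation p of 0.0159 is the smallest that these group sizes allow, and the share of all probe sets separated without that array was not counted. With all arrays its log2 fold change was -0.145, and that of the other Lamb1 probe set, 101948_at, was 0.166, in the opposite direction. The 95% intervals of the 14 log2 fold changes ran from -1.01 at the lowest to 1.66 at the highest, and those of Lama2 and of Col18a1 101881_g_at and 101882_s_at held both no change and a 2-fold change.

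At term no tested member passed either. Again 14 probe sets were tested (median signal above 48.7 in at least 1 group), 7 were higher and 7 lower in (-/-) lungs (52.8% of all were higher), and their median log2 fold change was 0.02 against 0.01 over all. None passed an adjusted p of 0.05 in limma (0.0% of all 5831 did), an unadjusted p under 0.05 (0.686% of all did) or the methods' t-test. No member was separated between genotypes (3.29% of all were), and with 3 lungs a side the exact permutation test cannot go below p = 0.1. The lowest and highest log2 fold changes were -0.21 for Col18a1 99638_at and 0.44 for Lama5 99931_at.

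**Figure D1:**
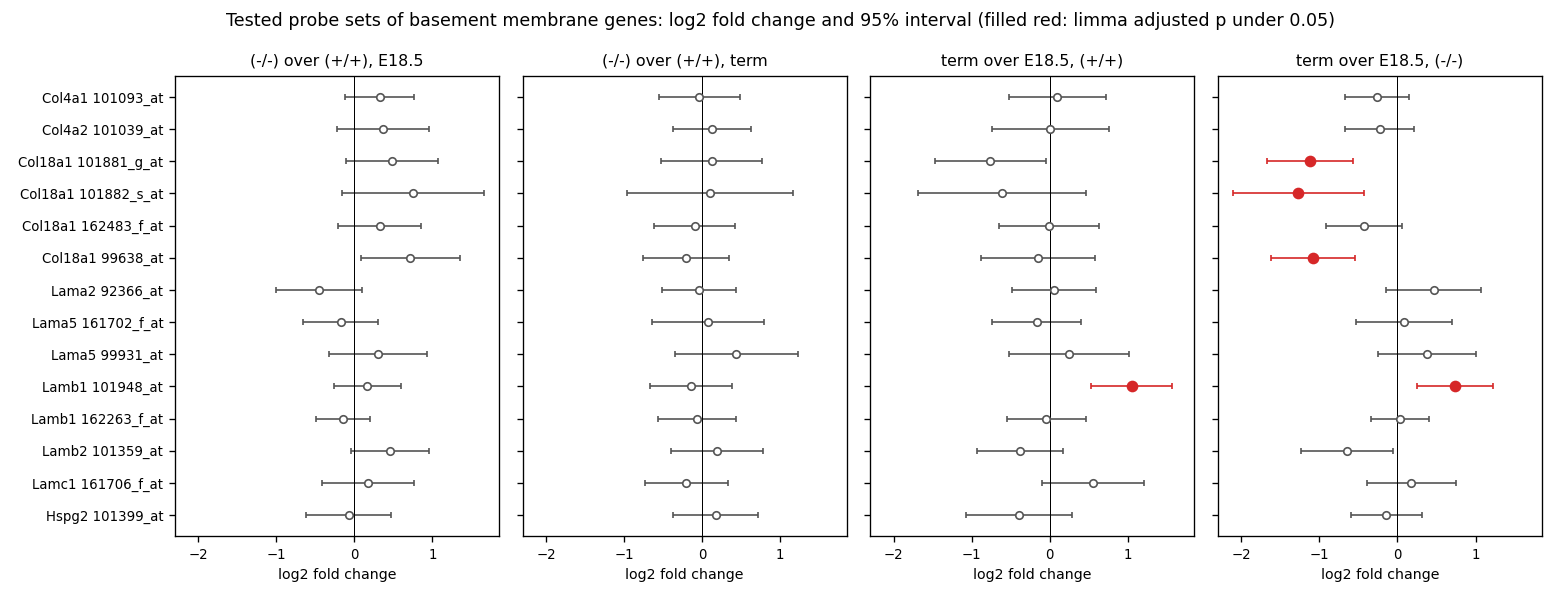
Log2 fold change (x axis, on log2(signal + 16)) of the 14 tested probe sets (y axis) in 4 comparisons, with limma's 95% intervals; filled red points have an adjusted p under 0.05. All points of both genotype comparisons are open, and the filled points are Lamb1 101948_at in both age comparisons and 3 Col18a1 probe sets in (-/-) lungs.

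The α1 chain of collagen IV, Col4a1 (chr8:11198423-11312889), had the lowest exact p of the genotype comparisons. At E18.5 its signals were 2363, 2597, 2297, 2092 and 2145 in the 5 (-/-) lungs and 1736, 1277, 2036, 2070 and 2167 in the 5 (+/+) lungs. All but 1 of the (+/+) lungs lay below every (-/-) lung, and the groups overlapped through (+/+) replicate M at 2167. The means were 2299 ± 200 against 1857 ± 362 (SD, n = 5 each), 1.24-fold higher in (-/-) lungs, with an exact 2-sided permutation p = 0.0238 for this 1 probe set and an exact p = 0.0476 without (+/+) replicate I. The same probe set gave a log2 fold change of 0.33 (SE 0.21) and an adjusted p of 0.88 in limma, so the difference did not pass the test over all probe sets. At term the (-/-) lungs held 1859, 2092 and 1789 and the (+/+) lungs 2288, 1606 and 2033, which overlapped fully (exact permutation p = 1).

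Col4a2 (chr8:11312805-11449287) encodes the α2 chain, which joins 2 α1 chains in the common collagen IV trimer. At E18.5 its signals were 2380, 2781, 2985, 2183 and 2238 in (-/-) lungs and 1334, 1115, 3109, 2671 and 2201 in (+/+) lungs. The (+/+) lungs spread over both sides of the (-/-) lungs, with replicates I and J lowest and K highest of all arrays. The means were 2513 ± 353 against 2086 ± 853 (SD, n = 5 each), a log2 fold change of 0.36 (SE 0.28; limma adjusted p = 0.884). At term the signals were 1970, 2531 and 1927 in (-/-) lungs and 1866, 2158 and 1838 in (+/+) lungs. From E18.5 to term neither chain passed: the log2 fold changes of Col4a1 and Col4a2 were 0.10 and 0.01 in (+/+) lungs and -0.26 and -0.23 in (-/-) lungs, where Col4a1 gave an exact permutation p of 0.0714 and limma adjusted p values were 0.317 and 0.427.

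Both genes are read from overlapping starts, so their covariation was examined. Each gene was represented by its probe set of highest mean signal, group means were removed, and all 45 pairs of the 10 genes were correlated over the 16 arrays, with array labels permuted within groups. Col4a1 and Col4a2 gave Pearson's r = 0.68 (permutation p = 0.0222, Benjamini-Hochberg adjusted over the 45 pairs 0.167) and Spearman's rho = 0.70 (permutation p = 0.0073, adjusted 0.116). This was the fifth highest of the 45 coefficients, r was 0.64 without the 2 arrays farthest from the median of Col4a1, (+/+) E18.5 replicate J and (+/+) term replicate O, and quantile normalization lowered it to 0.32. The relation did not pass the correction, and its size changed with the scaling of the arrays. Of the 45 pairs, 30 had r above 0, the median was 0.24, and the coefficients ran from -0.62 for Lamb1 and Nid1 to 0.78 for Col4a2 and Hspg2, which fell to 0.46 without (+/+) E18.5 replicates J and K. No pair passed the correction by r or by rho.

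**Figure D2:**
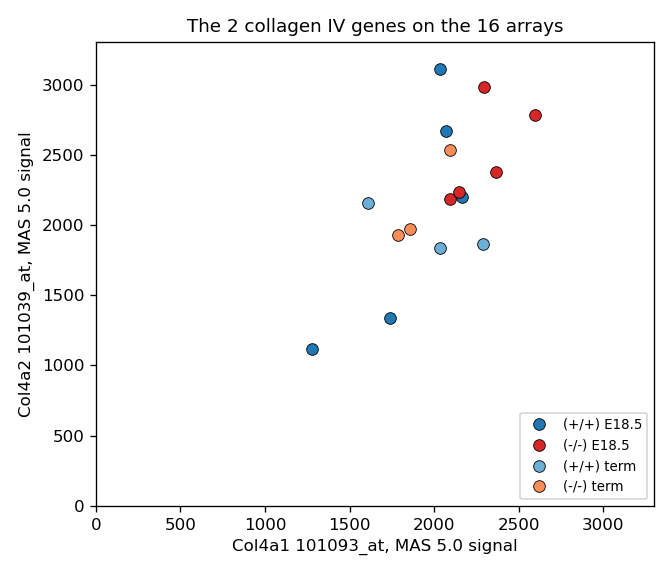
Signals of Col4a1 (x axis) and Col4a2 (y axis) on the 16 arrays, coloured by group. The 2 arrays with the lowest Col4a2 signals, 1115 and 1334, are (+/+) E18.5 lungs, and the (-/-) E18.5 lungs hold Col4a1 signals from 2092 to 2597.

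The probe sets whose signals most resembled those of Col4a1 were sought among the 5818 probe sets with 1 symbol that could be compared. The highest Pearson coefficients over the 16 arrays, group differences included, were 0.78 for Pacs1, 0.78 for Dnm1, 0.77 for Cdkn1a, 0.76 for Plekhb2 and 0.75 for Reep6, and Col4a2 ranked 12 with 0.74. Without replicate J of (+/+) E18.5 and replicate O of (+/+) term these 5 fell to between 0.46 and 0.67. The coefficients are a description, since the genes were chosen for them.

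The laminin β1 chain was the 1 tested member that rose from E18.5 to term. Lamb1 (chr12:31265146-31329644) is the β chain of most embryonic laminins, and its probe set 101948_at had signals of 106.2, 76.2, 81.8, 104.3 and 124.6 in the E18.5 (+/+) lungs and 201.6, 251.5 and 204.5 in the (+/+) newborns. Every newborn lay above every fetus (24.5% of all tested probe sets did not overlap between ages). The mean went from 98.6 ± 19.7 (SD, n = 5) to 219 ± 28.0 (SD, n = 3), 2.22-fold, with a log2 fold change of 1.05 (SE 0.24, limma adjusted p = 0.00825) and an exact permutation p of 0.0357, the smallest that 5 against 3 allows. In (-/-) lungs the same probe set had signals of 81.8, 120.1, 98.9, 162.5 and 105.4 in fetuses and 159.1, 224.3 and 210.8 in newborns. Only the fetus of replicate D reached into the newborns' range. The mean went from 114 ± 30.5 to 198 ± 34.4, 1.74-fold, with a log2 fold change of 0.74 (SE 0.22, limma adjusted p = 0.0277).

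Lamb1 is also read by a second probe set, 162263_f_at, which did not show the rise. Its signals were 168.6, 197.2, 231.1, 194.5 and 206.1 in (+/+) fetuses and 192.7, 228.2 and 160.4 in (+/+) newborns, with a log2 fold change of -0.05 (95% interval -0.55 to 0.46). In (-/-) lungs it went from 178 ± 10.4 to 183 ± 8.40, a log2 fold change of 0.03 (95% interval -0.34 to 0.41). The suffix f marks a probe set whose probes can match a family of transcripts, and the 2 probe sets of this gene disagree. In (+/+) lungs, Xist, the RNA of the inactive X chromosome of females, lay between 6.7 and 10.2 in the 3 newborns and between 14.3 and 80.0 in the 5 fetuses. With the Xist signal as a covariate the log2 fold change of 101948_at was 1.33 with a limma adjusted p of 0.0536. The SE was 0.35, against 0.24 without the covariate. Xist did not overlap between the ages, so this covariate and age cannot be fully told apart in (+/+) lungs. In (-/-) lungs the limma adjusted p rose above 0.05 when any 1 of the arrays A, C, G or H was left out, reaching 0.0984 without G, when no filter on low signals was used (0.053) and by the methods' t-test (0.0585).

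**Figure D3:**
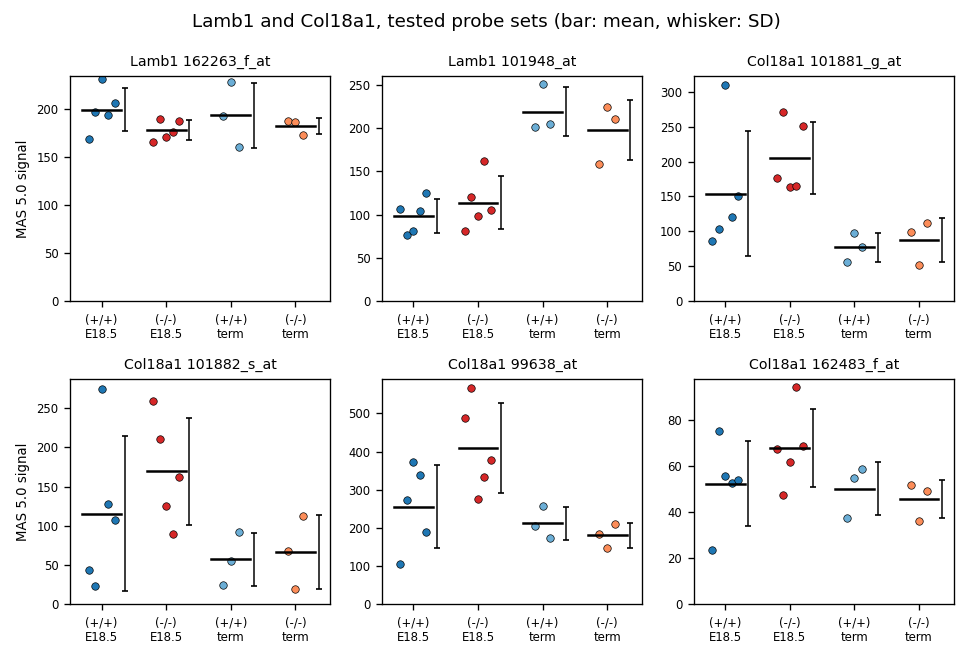
Signal (y axis, from 0) of the 2 Lamb1 probe sets and the 4 tested Col18a1 probe sets in each group (x axis), 1 point per array, with the mean as a bar and the SD as a whisker. Lamb1 101948_at is higher in newborns of both genotypes while 162263_f_at has (-/-) means of 178 and 183 at the 2 ages, and 3 of the Col18a1 probe sets are lower in (-/-) newborns than in most (-/-) fetuses.

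Collagen XVIII, a basement membrane proteoglycan whose C-terminal fragment is endostatin, fell toward term in (-/-) lungs, the 1 tested member gene with such a call. Col18a1 (chr10:77052178-77166530) is read by 5 probe sets, of which 4 were tested. Probe set 99638_at had signals of 488.8, 567.1, 275.9, 334.6 and 378.6 in the (-/-) fetuses and 183.7, 147.3 and 210.8 in the (-/-) newborns. All 3 newborns lay below all 5 fetuses (30.8% of all tested probe sets did not overlap between ages). The mean went from 409 ± 118 to 181 ± 31.9, with a log2 fold change of -1.08 (SE 0.25, limma adjusted p = 0.00817, exact permutation p = 0.0357). By the methods' t-test with Benjamini-Hochberg adjustment this call was lost (adjusted p = 0.0784).

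A second probe set of Col18a1, 101881_g_at, passed as well. Its signals were 176.4, 271.1, 163.2, 165.7 and 250.4 in (-/-) fetuses and 99.1, 51.7 and 111.8 in (-/-) newborns. The ages did not overlap, and the log2 fold change was -1.12 (SE 0.26, limma adjusted p = 0.00813), a call that the methods' t-test with Benjamini-Hochberg adjustment did not give (adjusted p = 0.0624). Probe set 101882_s_at had 259.6, 210.9, 125.0, 89.2 and 162.0 in the fetuses and 68.0, 19.4 and 113.1 in the newborns. Replicate D of the fetuses lay below the highest newborn, and the log2 fold change was -1.27 (SE 0.39, limma adjusted p = 0.0291). The call of 101882_s_at was lost without replicates A, F or G, each in turn, with a limma adjusted p of 0.147 without G, and by the methods' t-test (adjusted p = 0.165). The fourth tested probe set, 162483_f_at, passed the filter through the fetuses alone and had a log2 fold change of -0.43 (SE 0.22, limma adjusted p = 0.165). The last, 101880_at, was at 55.6 or below on every array and was not tested.

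In (+/+) lungs the same probe sets of Col18a1 had log2 fold changes from E18.5 to term of -0.16 for 99638_at, -0.76 for 101881_g_at, -0.62 for 101882_s_at and -0.01 for 162483_f_at, and none passed (limma adjusted p from 0.118 to 0.989). The (+/+) fetuses were widely spread: 99638_at had 105.1, 273.6, 373.3, 338.0 and 190.2 in them and 204.9, 257.7 and 173.2 in the newborns, so the ages overlapped. Whether the fall differs between genotypes was tested directly as the genotype effect at term minus that at E18.5. The estimate for 99638_at was -0.92 on the log2 scale (95% interval -1.86 to 0.01, limma adjusted p = 0.9997), so a difference between genotypes was not shown.

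Col18a1 also held the 1 member that passed an unadjusted p in limma in the genotype comparison at E18.5, which did not pass one by the methods' t-test. For 99638_at the means were 409 ± 118 in (-/-) and 256 ± 109 in (+/+) lungs (SD, n = 5 each), with a log2 fold change of 0.72 (SE 0.30, unadjusted limma p = 0.0293, adjusted p = 0.856) and an exact permutation p of 0.0714. The lowest lung was (+/+) replicate I at 105.1, the array that stood apart. Without it the (+/+) mean was 294 ± 80.4 and the exact permutation p = 0.143. The other 3 tested probe sets of Col18a1 had log2 fold changes of 0.48, 0.75 and 0.33 in the same direction, and none passed. The 0.33 is that of 162483_f_at, which passed the filter through the (-/-) fetuses alone, so the filter favours a higher (-/-) value there. At term all 4 lay between -0.21 and 0.12.

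Perlecan, the large heparan sulfate proteoglycan of the sheet, passed no test. The Hspg2 probe set (chr4:137468751-137570630) had signals from 289.1 to 431.7 in (-/-) and from 190.6 to 560.0 in (+/+) lungs at E18.5, and from 233.0 to 333.3 and from 223.7 to 294.8 at term. Its log2 fold changes were -0.07 and 0.17 between genotypes at E18.5 and term, and -0.39 and -0.14 from E18.5 to term in (+/+) and (-/-) lungs (limma adjusted p from 0.404 to 0.9998).

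Of the laminin α chains, neither Lama2, the chain of muscle and mesenchymal laminins, nor Lama5, the α chain of laminins under lung epithelium and around vessels, passed a test. Lama2 had the lowest log2 fold change of the E18.5 genotype comparison, from signals of 48.5, 73.4, 105.8, 79.3 and 31.7 in (-/-) and 104.1, 126.6, 85.7, 60.7 and 99.7 in (+/+) lungs. The groups overlapped, and the means of 67.7 ± 28.7 and 95.4 ± 24.3 (SD, n = 5 each) gave a log2 fold change of -0.46 (SE 0.26, limma adjusted p = 0.864, exact permutation p = 0.143). Lama5 was read by 2 probe sets. The signals of 99931_at ran from 486.2 to 824.1 in (-/-) and from 358.7 to 1176 in (+/+) lungs at E18.5, and from 539.4 to 1199 and from 441.1 to 800.5 at term. Its log2 fold changes in (-/-) against (+/+) lungs were 0.31 and 0.44, and those of 161702_f_at were -0.18 and 0.08, so the probe sets differed in sign at E18.5.

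The other β chain, Lamb2, known from laminins of vessel walls, glomeruli and neuromuscular junctions, had 222.9, 447.0, 354.2, 252.6 and 217.7 in (-/-) fetuses and 121.7, 213.8 and 211.9 in (-/-) newborns. Newborns lay just below the lowest fetus, by 217.7 against 213.8 (30.8% of all tested probe sets did not overlap between ages). The log2 fold change was -0.65 (SE 0.27), with an exact permutation p of 0.0357 and a limma adjusted p of 0.092, which missed the threshold, and with array quality weights it was -0.81 with a limma adjusted p of 0.0215. In (+/+) lungs Lamb2 went from 210 ± 57.7 to 154 ± 20.7 (log2 fold change -0.39, limma adjusted p = 0.306). Between genotypes at E18.5 its means were 299 ± 99.4 in (-/-) and 210 ± 57.7 in (+/+) lungs (log2 fold change 0.46, SE 0.23, limma adjusted p = 0.856).

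Lamc1, the γ1 chain shared by most laminins, was tested through 161706_f_at. Its means were 340 ± 117 and 303 ± 113 in (-/-) and (+/+) fetuses (SD, n = 5 each) and 374 ± 55.5 and 429 ± 28.7 in the newborns (SD, n = 3 each), and no comparison passed. The largest of its 4 log2 fold changes, 0.56 from E18.5 to term in (+/+) lungs (limma adjusted p = 0.215), was drawn from fetuses between 149.7 and 470.1, the lowest being replicate I. The second Lamc1 probe set, 102404_at, lay at 29.8 or below on every array except replicate I, where it was 75.4, and was not tested. Its (-/-) signals were 12.1, 29.8, 23.2, 18.2 and 19.8 in fetuses and 9.9, 4.3 and 5.0 in newborns, without overlap (exact permutation p = 0.0357). Of all tested probe sets, 30.8% did not overlap between ages in (-/-) lungs.

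Nidogen 1, which bridges the laminin and collagen IV networks, was read by a single probe set of low signal that stayed under the limit for testing. Nid1 had 26.3, 35.7, 34.5, 41.1 and 19.1 in (-/-) fetuses and 12.2, 4.9 and 14.8 in (-/-) newborns. It had 38.6, 33.3, 22.6, 22.9 and 21.7 in (+/+) fetuses and 12.9, 7.9 and 19.1 in (+/+) newborns. In both genotypes every newborn lay below every fetus, with an exact permutation p of 0.0357 in each, the smallest possible. Signals this low rest on small differences between matched and mismatched probes. Between genotypes they overlapped at both ages (exact permutation p = 0.524 at E18.5 and 0.6 at term).

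**Figure D4:**
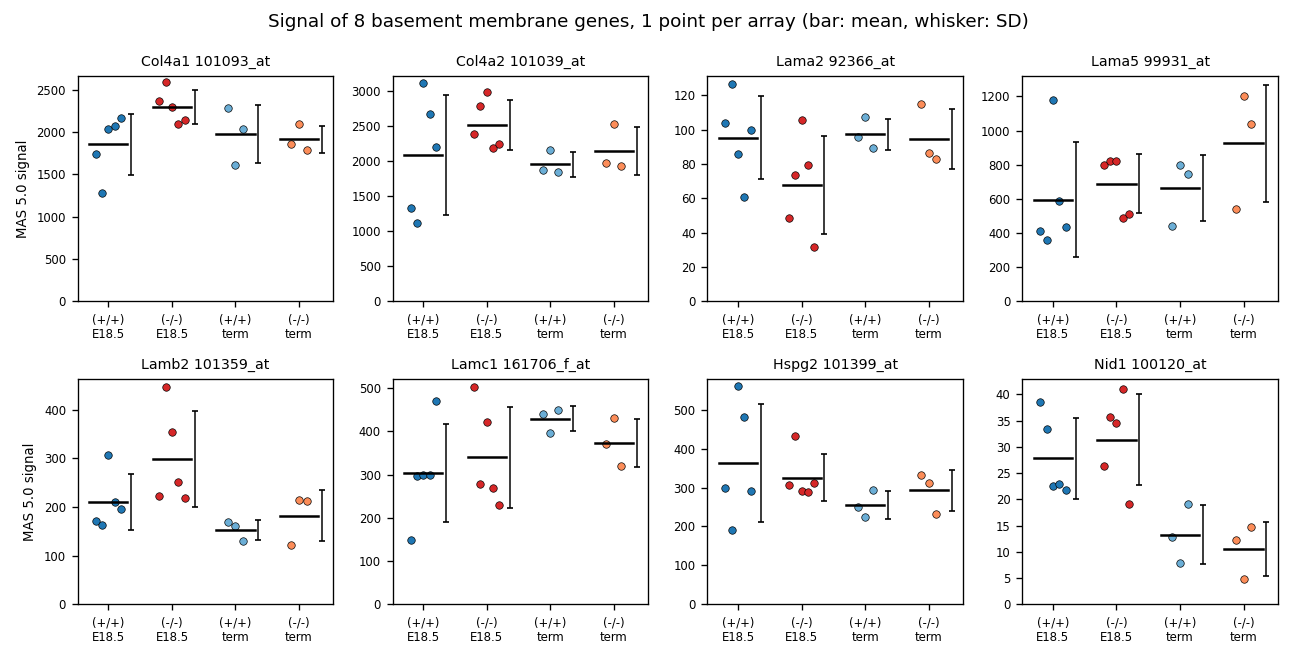
Signal (y axis, from 0, each panel on its own scale) of 8 genes by group (x axis), 1 point per array, with the mean as a bar and the SD as a whisker. The (+/+) E18.5 arrays are widely spread for Col4a2, from 1115 to 3109, and Nid1 lies lower in newborns of both genotypes.

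Counted together, the members with a call from E18.5 to term were set against the share of all probe sets called. In (+/+) lungs 1 of 14 tested probe sets rose (10.7% of all 6097 tested did) and 0 fell (8.07% of all did), with 1 unadjusted p under 0.05 in each direction, and the methods' t-test gave the same counts of 1 and 0. The median log2 fold change of the 14 was -0.03 against -0.04 over all, and 1 member's signals did not overlap between ages (24.5% of all probe sets' did not). In (-/-) lungs 1 rose (13.8% of all 6145 did) and 3 fell (13.1% of all did), the 3 being probe sets of the 1 gene Col18a1. Together 4 of 14 were called in (-/-) lungs, close to the share over all probe sets. The median there was -0.19 against -0.06 over all, and it was 0.02 after quantile normalization. Signals of 3 members did not overlap between ages (30.8% of all did not). The methods' t-test with Benjamini-Hochberg adjustment called 0 members in (-/-) lungs in either direction.

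The summed signals of several marker lists moved with age beside these counts. The summed signal of endothelial cell markers (16 of 20 genes on the array, 13 with a median signal over 50) ran from 4783.5 to 6980.2 in (-/-) and from 4074.3 to 6587.5 in (+/+) fetuses, and from 7630.4 to 9355.1 and from 6421.2 to 10041.7 in the newborns. Fibroblast markers (14 of 14 genes) ran from 16775.7 to 24926.2 in (-/-) fetuses and from 12082.7 to 15535.5 in (-/-) newborns, and from 13450.5 to 26092.8 and from 12445.6 to 12870.1 in (+/+) lungs, without overlap in either genotype. Type II cell markers (7 of 11 genes) ran from 18574.8 to 37925.5 over all fetuses and from 10596.5 to 14664.6 over all newborns, and erythroid markers (7 of 14 genes) from 12884.7 to 30700.0 in (+/+) fetuses and from 7186.0 to 7737.0 in (+/+) newborns. These sums follow the genes of highest signal. By probe set, the fibroblast list had a median log2 fold change over age of -0.03 in (+/+) lungs. There 1 of 18 tested was called higher and 2 lower (10.7% and 8.07% of all). In (-/-) lungs the median was -0.28, with 1 of 18 higher and 4 lower (13.8% and 13.1% of all). Type II cell medians were -0.46 and -0.67, with 1 of 6 higher in each and 2 and 3 lower. Over all probe sets the medians were -0.04 and -0.06. No endothelial defining marker was at 0: Cdh5 was at 266.9 or above and Pecam1 at 10.6 or above on every array. The 3′ to 5′ ratio of the GAPDH probe sets ran from 0.96 to 1.72 over all fetuses and from 0.83 to 2.63 over all newborns. It was highest in (-/-) term replicate G. That of β-actin ran from 1.08 to 1.91 and from 1.30 to 2.72. The part of these shifts and ratios in the changes of Lamb1, Col18a1 and Nid1 was not tested. In the genotype comparison at E18.5, the ratio of the 3′ to the 5′ probe sets of β-actin, a sign of RNA integrity, ran from 1.26 to 1.91 in (-/-) and from 1.08 to 1.46 in (+/+) lungs. Type II cell markers had a median log2 fold change of 0.55 there, with 2 of 6 tested probe sets higher at an unadjusted p under 0.05, and their summed signal ran from 22928.9 to 37925.5 in (-/-) and from 18574.8 to 33535.7 in (+/+) fetuses. Smooth muscle and pericyte markers had a median of -0.31, with 0 of 6 at an unadjusted p under 0.05. Over all 16 arrays, the sums of liver, heart, skeletal muscle and cartilage markers (18 of 20 genes) ran from 785.8 to 7029.3. Among these, the heart gene Myh6 ran from 15.6 to 1959.2. The part of these differences in the members' values was not tested.

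For the difference between the genotype effects at the 2 ages, 0 of the 14 members passed an adjusted p of 0.05 (0.0% of all 6405 did) or an unadjusted p under 0.05 in limma (1.47% of all did). Here 5 estimates were above 0 and 9 below (49.0% of all were above 0), with a median of -0.29 against -0.01 over all probe sets. The 2 genotype effects and the 2 age effects use the same 4 groups, so these values restate the ones above in another form.

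Other components of the sheet, 27 probe sets of 20 genes, had few calls over age, near the share over all probe sets for those that fell. In (+/+) lungs 0 of 20 tested rose (10.7% of all probe sets rose) and 2 fell (8.07% of all fell), with a median log2 fold change of -0.44, and in (-/-) lungs 0 of 20 rose (13.8% of all rose) and 3 fell (13.1% of all fell), with a median of -0.38. Over all probe sets tested the medians were -0.04 and -0.06. Lama3, the α chain of the laminin that anchors epithelium, fell in both: its mean went from 232 ± 54.3 to 115 ± 38.5 in (+/+) (log2 fold change -0.94, limma adjusted p = 0.025) and from 212 ± 32.2 to 127 ± 20.7 in (-/-) lungs (-0.67, limma adjusted p = 0.0241). Smoc1, a secreted calcium-binding matrix protein, fell in (+/+) lungs from 56.0 ± 17.2 to 18.7 ± 5.07 (log2 fold change -1.03, limma adjusted p = 0.0287), but it passed the filter on low signals through the fetuses alone, which favours a fall. Fbln1, the matrix glycoprotein fibulin 1, fell in (-/-) lungs by both named probe sets, with log2 fold changes of -0.87 (94309_g_at, limma adjusted p = 0.0307) and -0.65 (94308_at, limma adjusted p = 0.0452). Agrn, the proteoglycan agrin, went from 462 ± 124 to 814 ± 137 in (+/+) lungs and missed the threshold (log2 fold change 0.82, limma adjusted p = 0.0516). Naming was limited to the lowest p of each comparison, and means moved the same way in the other genotype. Smoc1 went from 68.0 ± 32.1 to 27.9 ± 16.9 and Agrn from 526 ± 115 to 767 ± 140 in (-/-) lungs. Fbln1 went from 712 ± 289 to 383 ± 91.7 (94309_g_at) and from 287 ± 66.0 to 181 ± 57.1 (94308_at) in (+/+) lungs.

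Receptors of basement membrane proteins and their linkers, 46 probe sets of 28 genes, had calls in both directions. In (+/+) lungs 5 of 33 tested rose and 3 fell (10.7% and 8.07% of all), and in (-/-) lungs 7 of 35 rose and 7 fell (13.8% and 13.1% of all), with medians of 0.15 and 0.07. Lims1, an adaptor that ties integrin-linked kinase to the cytoskeleton, rose in both, from 222 ± 35.9 to 498 ± 145 in (+/+) (log2 fold change 1.09, limma adjusted p = 0.0107) and from 192 ± 45.3 to 441 ± 26.8 in (-/-) lungs (1.16, limma adjusted p = 0.00282). Dag1, which encodes the laminin receptor dystroglycan, rose in (+/+) lungs from 198 ± 53.7 to 402 ± 83.8 (log2 fold change 0.98, limma adjusted p = 0.0237). In (-/-) lungs the integrin chain Itgav rose from 296 ± 29.2 to 705 ± 96.8 (1.21, limma adjusted p = 0.00131), and Cd47, an integrin-associated protein, from 257 ± 40.2 to 558 ± 57.3 (1.08, limma adjusted p = 0.00268). Rpsa fell in (+/+) lungs from 1754 ± 434 to 723 ± 265 (log2 fold change -1.28, limma adjusted p = 0.0116), and it encodes a ribosomal protein that has also been described as a laminin receptor. Naming was limited to the lowest p of each comparison, and means moved the same way in the other genotype. Itgav went from 405 ± 123 to 714 ± 156 and Cd47 from 255 ± 115 to 610 ± 202 in (+/+) lungs. Dag1 went from 197 ± 26.9 to 319 ± 65.8 and Rpsa from 1973 ± 484 to 948 ± 271 in (-/-) lungs. Itgb4, the hemidesmosome integrin that binds laminin, passed the filter through the (-/-) fetuses alone, where it was high, so its estimate of -1.10 for the difference between genotype effects (limma adjusted p = 0.9997) is given as a value only.

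Genes of collagen and laminin biosynthesis, 25 probe sets of 19 genes, had calls at about the share over all probe sets. In (+/+) lungs 2 of 20 tested rose and 2 fell (10.7% and 8.07% of all), and in (-/-) lungs 2 of 20 rose and 4 fell (13.8% and 13.1% of all). Hsp90b1, a chaperone of the endoplasmic reticulum, fell in (+/+) (log2 fold change -1.57, limma adjusted p = 0.00796) and (-/-) lungs (-1.30, limma adjusted p = 0.00318). Ppib, the prolyl isomerase that assists collagen folding, fell from 664 ± 190 to 336 ± 189 in (+/+) (-1.03, limma adjusted p = 0.0428) and from 885 ± 208 to 295 ± 95.7 in (-/-) lungs (-1.55, limma adjusted p = 0.00236). Pdia3, a disulfide isomerase, rose in (+/+) lungs (1.04, limma adjusted p = 0.0203), and Lox, which cross-links collagen and elastin, rose in (-/-) lungs from 262 ± 51.3 to 634 ± 99.7 (1.23, limma adjusted p = 0.00226). Means moved the same way in the other genotype. Pdia3 went from 148 ± 60.8 to 271 ± 60.2 in (-/-) and Lox from 350 ± 127 to 682 ± 214 in (+/+) lungs.

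Between genotypes, 0 probe sets of the 3 lists passed an adjusted p of 0.05 in limma at either age. At an unadjusted p under 0.05 the count was 1 at E18.5 (5.3% of all probe sets) and 0 at term (0.686% of all). That 1 was Colgalt1, a collagen galactosyltransferase, with 197 ± 21.1 in (-/-) and 147 ± 13.5 in (+/+) lungs (log2 fold change 0.38, limma adjusted p = 0.856). The calls of the 3 lists over age in (+/+) lungs depended on the processing: all were lost with the Xist signal as a covariate, by the methods' t-test and without (+/+) term replicate N. In (-/-) lungs, leaving out 1 array gave 0 to 4 calls for the other components, 0 of them without replicate C or H, 7 to 16 for the receptors, 7 without G and 8 without F, and 4 to 9 for biosynthesis. The methods' t-test gave 1, 6 and 2 there.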

How the data were processed

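Labeled total lung RNA was measured on U74Av2 mouse arrays of Affymetrix. The authors derived 1 signal intensity per probe set and array with Microarray Suite 5.0 and scaled each array, and these linear intensity values were deposited. Affymetrix's detection calls were not used here. Probe sets were named from the platform annotation: 10833 had 1 symbol, 396 several and 1193 none. Columns of no sample numbered 0.

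Signals were analysed as log2(signal + 16). Testing was limited to probe sets with a group median over the level that 45% of the values in the fit exceed, in place of the authors' filter on detection. limma (version 3.58.1, R 4.3.3) was fitted to the groups compared with an intensity trend, and Benjamini-Hochberg adjustment ran over every probe set in the fit (threshold 0.05). Means are given ± SD of the signals. Exact 2-sided permutation tests (scipy 1.17.1) compared the signals of single probe sets, and correlations used 100000 permutations within groups. Fold changes on this scale are understated for low signals. All probe sets of the members were named, Pdpn as the check of the labels, up to 3 probe sets per pathway list and comparison with the lowest limma p among those with an unadjusted p under 0.05, and the 5 probe sets most correlated with Col4a1. The members and lists were chosen with earlier results of these data known. At most 1.16% of signals were identical between any 2 arrays, and each array is a separate lung by the labels, which give no litter, sex or date. The number of arrays limits the precision. Alternatives covered normalization (quantile, median centring), pseudocount (none with a floor of 1, or 64), the filter (none, or 25%), 1 fit to all arrays, the intensity trend, array weights, the methods' t-test, the Xist signal and the GAPDH 3′ to 5′ ratio as covariates, and leaving out each array. The tests were tried on simulated data first. Promoter windows and gene positions are those of RefSeq (GRCm38.p6).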

Additional observations from a re-analysis of the deposited data

Results flagged for a closer look

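In the 34 groups of 5 arrays examined, 4 held an array far from the others, and chance gives about 1 in 20 such groups. Col18a1 101881_g_at was 309.4 on (+/+) E18.5 replicate K and between 86.7 and 150.7 on the other (+/+) fetuses. Lama5 99931_at was 1176 on the same array and between 358.7 and 588.3 on the others. Col18a1 101880_at was 55.6 on (+/+) E18.5 replicate I, the array with the raised low signals, and between 18.0 and 24.1 on the others. Hspg2 was 431.7 on (-/-) E18.5 replicate B and between 289.1 and 310.4 on the other (-/-) fetuses.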

How the results depend on the processing

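No result changed direction while past the threshold under any alternative. No paired analysis was possible because the replicate letters are not shared between groups. The number of members with an unadjusted p under 0.05 between genotypes at E18.5 was 1, and it was 0 with arrays centred on the median, 4 with the GAPDH ratio as a covariate, and 0 to 5 when 1 array was left out (0 without B, I or M and 5 without K). The member that rose in (+/+) lungs was 0 in number with the Xist covariate. In (-/-) lungs over age, the members that rose numbered 0 without a filter and 0 with the methods' t-test, and 0 to 1 when 1 array was left out. The members that fell numbered 0 with the methods' t-test, up to 4 over all alternatives and 2 to 3 when 1 array was left out. Without a filter, 2 probe sets not tested otherwise were called lower. They were Nid1 (log2 fold change -0.83, limma adjusted p = 0.0446) and Lamc1 102404_at (-0.70, limma adjusted p = 0.0455). Col18a1 101882_s_at was also lost with median centring (limma adjusted p = 0.052), without a filter (0.0645) and in 1 fit to all arrays (0.0789). The median log2 fold change there, -0.19, was 0.0161 with quantile normalization, -0.09 without replicate H and -0.12 without replicate B. In (+/+) lungs the median over age, -0.03, was -0.11 without replicate I or O and 0.01 without K or P. The median between genotypes at term, 0.02, ran from -0.05 without (+/+) replicate N to 0.07 without (+/+) replicate O, and that of the difference of effects, -0.29, was -0.18 without (-/-) replicate F or (+/+) replicate I. For the difference between genotype effects, 1 member had an unadjusted p under 0.05 without a filter and 1 with array quality weights, and 0 to 1 when 1 array was left out. The correlation of Col4a1 and Col4a2 was 0.32 with quantile normalization and 0.41 to 0.83 when 1 array was left out, lowest without (+/+) E18.5 replicate J. The cause of these changes was not tested.

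Centring arrays on the median moved the median of all probe sets from -0.04 to 0.10 over age in (+/+) lungs and from -0.06 to 0.04 in (-/-) lungs, and the calls over all probe sets went from 650 higher and 492 lower to 679 and 229, and from 851 and 803 to 1034 and 517. Over all alternatives those counts ran from 129 to 955 higher and from 53 to 986 lower in (+/+) lungs, lowest with the Xist covariate, and from 504 to 1085 and from 364 to 1170 in (-/-) lungs. Between genotypes, the unadjusted count over all probe sets was 309 at E18.5 (177 to 515) and 40 at term (22 to 287), and 94 for the difference of effects (51 to 273).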
